A study of Homo sapiens with 18 samples.

Results

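The SCAN-domain zinc finger family is the group of transcription factors to which ZNF263 belongs, and its 48 genes were followed here in human embryonic stem cells edited at ZNF263. The members were chosen by symbol, and all 48 stand among the 27130 gene symbols of the count tables. Polyadenylated RNA was sequenced from H1 (WA01) and H9 (WA09), which are established human embryonic stem cell lines, and the submitters' question was the part ZNF263 plays in pluripotency. In H9 there were the clones 9-1 and 9-D, both homozygous knockouts of ZNF263 made with Cas9, and wild type, with 3 libraries each. In H1 there were the homozygous knockout clone 1-10 and wild type, with 3 libraries each. The heterozygous knockout clone 1-5 of H1 was sequenced once, beside a single further library of clone 1-10 and of wild type, so the series has 18 libraries. Each knockout is a single clone, the labels do not name the edited stretch of the gene, and they do not say whether the libraries of a group came from separate cultures, so p-values measure the spread between these libraries.

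The SCAN domain is a short helical stretch near the N terminus through which these proteins pair with themselves and with one another. Most members also carry C2H2 zinc fingers that read DNA, and some carry a KRAB domain. In many zinc finger proteins KRAB recruits the corepressor TRIM28 and through it histone methylation and heterochromatin protein. Whether it does so in these members was not tested here. ZNF263 itself has SCAN, KRAB and zinc fingers and binds G-rich sites built of repeated GGA. By name and known domain make-up, 19 members carry both SCAN and KRAB, 27 carry SCAN with zinc fingers only, and 2 (SCAND1 and PGBD1) have no zinc fingers. Because SCAN proteins can bind each other, and because paralogs of an edited gene can change in level, the question asked of these tables was how the relatives of ZNF263 were expressed at the start and in each clone.

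Promoters are shown for 4 members that the results below turn on or that hold the motif: ZSCAN10, the most abundant member, ZKSCAN1, the member whose change differed between the lines, ZSCAN2, the one relative that rose in the H1 clone, and ZSCAN29, which has a match to the ZNF263 core motif. Each promoter shown runs 5′ to 3′ on the gene's strand, from 250 bases before to 50 bases after a RefSeq transcript start in GRCh38.p14. Capitals mark GGAGGAGG or its reverse complement CCTCCTCC.
ZSCAN10, chr16:3099245-3099544, minus strand: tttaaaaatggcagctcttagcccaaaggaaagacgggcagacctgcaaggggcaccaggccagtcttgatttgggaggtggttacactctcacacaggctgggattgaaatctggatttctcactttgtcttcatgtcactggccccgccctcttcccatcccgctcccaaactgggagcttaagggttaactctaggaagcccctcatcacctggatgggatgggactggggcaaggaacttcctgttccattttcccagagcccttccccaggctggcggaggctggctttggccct
ZKSCAN1, chr7:100015346-100015645, plus strand: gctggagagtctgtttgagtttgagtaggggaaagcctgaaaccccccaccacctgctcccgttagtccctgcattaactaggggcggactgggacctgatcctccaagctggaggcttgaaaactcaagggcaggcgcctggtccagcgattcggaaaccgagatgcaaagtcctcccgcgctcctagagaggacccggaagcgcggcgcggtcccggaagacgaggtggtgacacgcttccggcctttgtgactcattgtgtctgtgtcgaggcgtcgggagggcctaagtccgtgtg
ZSCAN2, chr15:84600759-84601058, plus strand: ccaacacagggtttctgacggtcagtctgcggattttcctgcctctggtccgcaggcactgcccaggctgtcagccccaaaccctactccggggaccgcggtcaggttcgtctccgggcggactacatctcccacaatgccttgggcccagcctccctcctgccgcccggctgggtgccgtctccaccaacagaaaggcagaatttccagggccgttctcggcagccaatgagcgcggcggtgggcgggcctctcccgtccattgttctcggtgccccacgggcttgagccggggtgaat
ZSCAN29, chr15:43370013-43370312, minus strand: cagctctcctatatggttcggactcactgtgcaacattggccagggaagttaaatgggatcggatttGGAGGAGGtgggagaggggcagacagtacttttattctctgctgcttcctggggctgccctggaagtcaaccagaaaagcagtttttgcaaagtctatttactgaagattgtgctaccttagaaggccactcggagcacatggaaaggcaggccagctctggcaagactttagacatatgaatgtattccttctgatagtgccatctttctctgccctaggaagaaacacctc
RefSeq promoters were matched for 41 of the 48 members, 64 promoters in all because some genes have several starts. The motif, searched on both strands, stood in 7 of the 64 (10.9%), and in 3831 of all 35116 RefSeq promoters of the same length (10.9%). The 7 belonged to SCAND1, ZNF287, ZNF446, ZSCAN29 and ZSCAN5A. Windows of a gene can overlap, and the matched windows of ZNF287 hold the same stretch, as do those of ZSCAN5A. The 7 are thus windows and not separate sites, and the share over all promoters was counted by window as well. These letters did not occur in the matched windows of ZNF263, ZSCAN10, ZSCAN2, ZKSCAN1, ZSCAN12, ZSCAN18 or ZSCAN30, the members with the clearest changes described below.

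Library totals ran from 9.66 to 21.01 M counts, so that 3 counts, the limit a count of 0 allows, were worth 0.143 to 0.310 CPM (counts per 1000000 counts). The median count of a member over the libraries was 238.5 for the middle member, 10 for the lowest (the least expressed genes are thus measured coarsely) and 5130 for the highest. Levels below are CPM scaled with TMM factors, and a gene is said to have passed, risen or fallen where edgeR's quasi-likelihood test gave a Benjamini-Hochberg adjusted p under 0.05 over all genes tested. Fold changes are log2 with standard error (SE). All 48 members passed the filter on low counts in every comparison. All 7 pluripotency markers examined were present, with a summed level of 8346 to 8511 CPM in clone 9-1 and 8623 to 8669 CPM in clone 9-D, against 7606 to 7863 CPM in H9 wild type, and of 8979 to 9466 CPM in clone 1-10, against 8328 to 8742 CPM in H1 wild type. The sums thus lay above wild type in every knockout clone, but not every marker rose. Of the 7, 4 rose and 1 fell in 9-1, 4 rose and 0 fell in 9-D, and 1 rose and 0 fell in 1-10. PODXL went the other way in H9, with a mean of 1656 CPM in 9-1 and 1796 CPM in 9-D, against 1920 CPM in H9 wild type. The sum of 6 neural markers was 427 to 456 CPM in 9-1 and 425 to 478 CPM in 9-D, against 281 to 327 CPM in H9 wild type, and 348 to 399 CPM in 1-10, against 360.1 to 395 CPM in H1 wild type. Most of that sum was TUBB3, which rose in both H9 clones by 0.64, whereas MAP2 fell in all 3 clones (-0.71 in 9-1, -0.92 in 9-D and -0.56 in 1-10) and PAX6 fell in 1-10 (-1.12). Of the neural markers tested, 1 rose and 1 fell of 4 in each H9 clone, and 0 rose and 2 fell of 5 in 1-10. The sum of 8 fibroblast markers was 764 to 836 CPM in 9-1 and 860.1 to 937 CPM in 9-D, against 858 to 899 CPM in H9 wild type, and 589 to 707 CPM in 1-10, against 634 to 669.9 CPM in H1 wild type. Of those tested, COL1A1 rose in both H9 clones (0.54 in 9-1 and 0.65 in 9-D), while 3 of 5 fell in 9-1 and 2 of 5 in 9-D, PDGFRB most (-0.92 and -0.68), and 0 rose and 4 of 6 fell in 1-10. The fibroblast-defining genes LUM and DCN were at or near 0 throughout. The sum of 7 endoderm and mesoderm markers was 3.03 to 8.64 CPM in 9-1 and 3.32 to 7.18 CPM in 9-D, against 1.78 to 3.23 CPM in H9 wild type, and 4.05 to 6.64 CPM in 1-10, against 6.08 to 10.4 CPM in H1 wild type. FOXA2 and GATA6 rose in both H9 clones, 2 of 3 tested, and T (brachyury) and SOX17 fell in 1-10, 2 of 3 tested. In the difference of effects, H9 minus H1, 3 of 4 tested were higher. The part of these markers in the results below was not tested. In bulk RNA, fewer cells of a type and less RNA per cell cannot be told apart.

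In wild-type stem cells the family spanned a wide range of levels, and 1 member stood far above the others. Per kilobase of annotated exon, ZSCAN10, which in mouse embryonic stem cells works with Oct4 and Sox2 to keep the pluripotent state, had 115.5 ± 5.65 CPM per kb in H9 wild type and 108.9 ± 2.92 CPM per kb in H1 wild type (SD, n = 3 each). The median member had 4.18 CPM per kb in H9 and 4.32 CPM per kb in H1, so ZSCAN10 was at 27.7 times the family median in H9 and 25.2 times in H1. SCAND1, a SCAN-only protein that pairs with MZF1, was second in both lines, with 28.5 ± 2.57 CPM per kb in H9 and 35.1 ± 1.68 CPM per kb in H1. The next 3 in either line were ZNF444, a regulator of a scavenger receptor gene in endothelial cells, ZNF496, whose mouse counterpart binds the histone methyltransferase NSD1, and ZNF24, a repressor of VEGF transcription. Their levels were 21.9, 20.95 and 14.9 CPM per kb in H9 and 22.1, 23.7 and 17.3 CPM per kb in H1, in that order. The libraries of ZNF444 and ZNF496 overlapped in both lines, so the order of these neighbours does not exceed their spread. ZNF263 itself was at rank 9 in H9, at 9.04 ± 0.480 CPM per kb, and at rank 10 in H1, at 8.79 ± 0.271 CPM per kb.

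**Figure D1:**
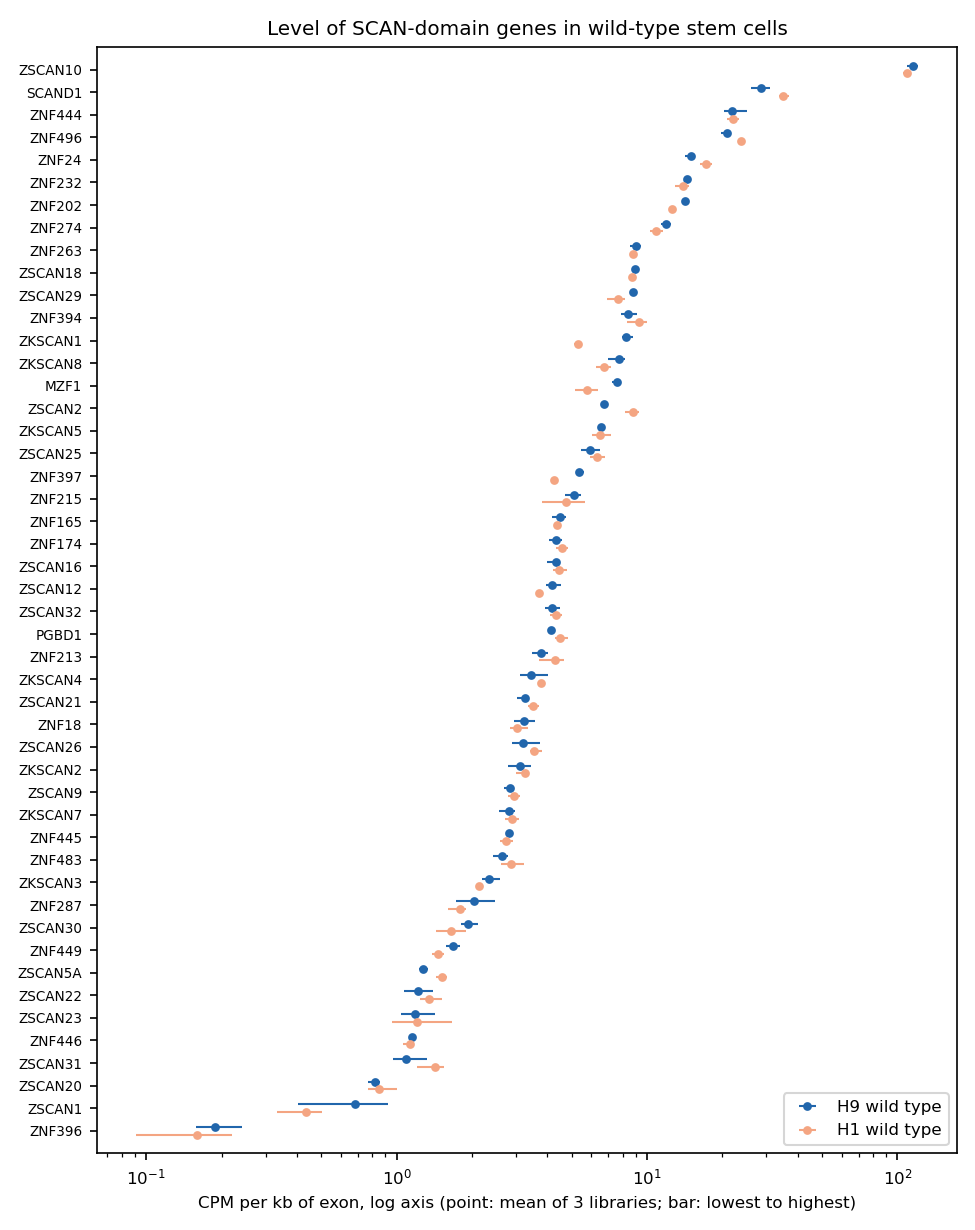
Level of the 48 SCAN-domain genes in H9 wild type and H1 wild type, as CPM per kb of exon on a log axis, each point being the mean of 3 libraries and each bar running from the lowest to the highest library. ZSCAN10 stands above 100 CPM per kb in both lines, 45 members are at 1 CPM per kb or more in each, and ZSCAN20, ZSCAN1 and ZNF396 lie below.

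The order of the family was much the same in both lines at its ends. In each line 45 of the 48 members had at least 1 CPM per kb, and the lowest 3 were the same genes, with ZSCAN20 at 0.822 and 0.853, ZSCAN1 at 0.685 and 0.433, and ZNF396 at 0.188 and 0.160 CPM per kb in H9 and in H1 in turn. These ranks rest on annotated exon length, and a gene that uses only short isoforms would rank too low.

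H9 wild type and H1 wild type differed in 10 members, 6 higher and 4 lower in H9, with a median log2 fold change of 0.01 over the family and 0.00 over all genes. That is 20.8% of the family, beside 54.4% of the 15233 genes tested (28.1% higher and 26.3% lower). None of the 48 reached a fitted 2-fold difference, beside 7.46% of all genes. The labels do not say whether both lines were handled together, so line and preparation cannot be told apart. The largest difference among the 10 was that of ZKSCAN1, a SCAN and KRAB gene known as the source of a circular RNA in liver. It had 76.2, 83.7 and 77.1 CPM in H9 wild type and 49.0, 52.7 and 50.7 CPM in H1 wild type. Every H9 library lay above every H1 library, with a log2 fold change of 0.64 (SE 0.0655, edgeR adjusted p = 1.6e-11). MZF1, a factor first found in myeloid cells, was higher in H9 by 0.39 and ZNF397 by 0.33. ZSCAN29, ZKSCAN8, whose call was lost with DESeq2, and ZNF202, a repressor of lipid transport genes whose call was also lost with DESeq2, were higher by 0.18 to 0.21. ZSCAN2 was lower in H9, at 30.8, 30.0 and 29.4 CPM in H9 wild type and 39.4, 41.7 and 36.6 CPM in H1 wild type, with a log2 fold change of -0.38 (SE 0.0776, edgeR adjusted p = 4.55e-05). SCAND1 at -0.30, ZNF24 at -0.21 and ZNF496 at -0.17 were also lower. Leaving out 1 library ended the call for ZKSCAN8 (H1 library 2 or H9 library 3), ZNF202 (H1 library 1), ZSCAN29 (H1 library 3) and ZNF496 (H9 library 2), with adjusted p up to 0.137. ZNF263 did not pass, with a log2 fold change of 0.04 (edgeR adjusted p = 0.648), and neither did ZSCAN10, with 0.09 (adjusted p = 0.164).

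The edited gene was the one member that passed in all 3 homozygous clones. ZNF263 had 37.1, 36.1 and 34.3 CPM in clone 9-1, 35.3, 35.2 and 37.5 CPM in 9-D, and 39.6, 44.1 and 42.4 CPM in H9 wild type. In H1 it had 32.7, 33.6 and 36.3 CPM in clone 1-10 and 40.6, 42.3 and 39.8 CPM in wild type. All 9 knockout libraries lay below the wild type of their line without overlap, and the lowest of them still had 32.7 CPM. The log2 fold change was -0.23 in 9-1 (SE 0.0732, edgeR adjusted p = 0.0157), -0.23 in 9-D (SE 0.0731, adjusted p = 0.0204) and -0.27 in 1-10 (SE 0.0756, adjusted p = 0.0156). The call in 9-1 was lost without wild-type library 2 or 9-1 library 3 (adjusted p up to 0.0904). That in 9-D was lost without wild-type library 2 or 3 or 9-D library 1 or 2 (up to 0.0851), and that in 1-10 without wild-type library 2 or 1-10 library 1 (up to 0.0971), while the call over both H9 clones together (-0.23, adjusted p = 0.0046) held without any one library. The counts are per gene, so they measure transcript level and do not check the edit.

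**Figure D2:**
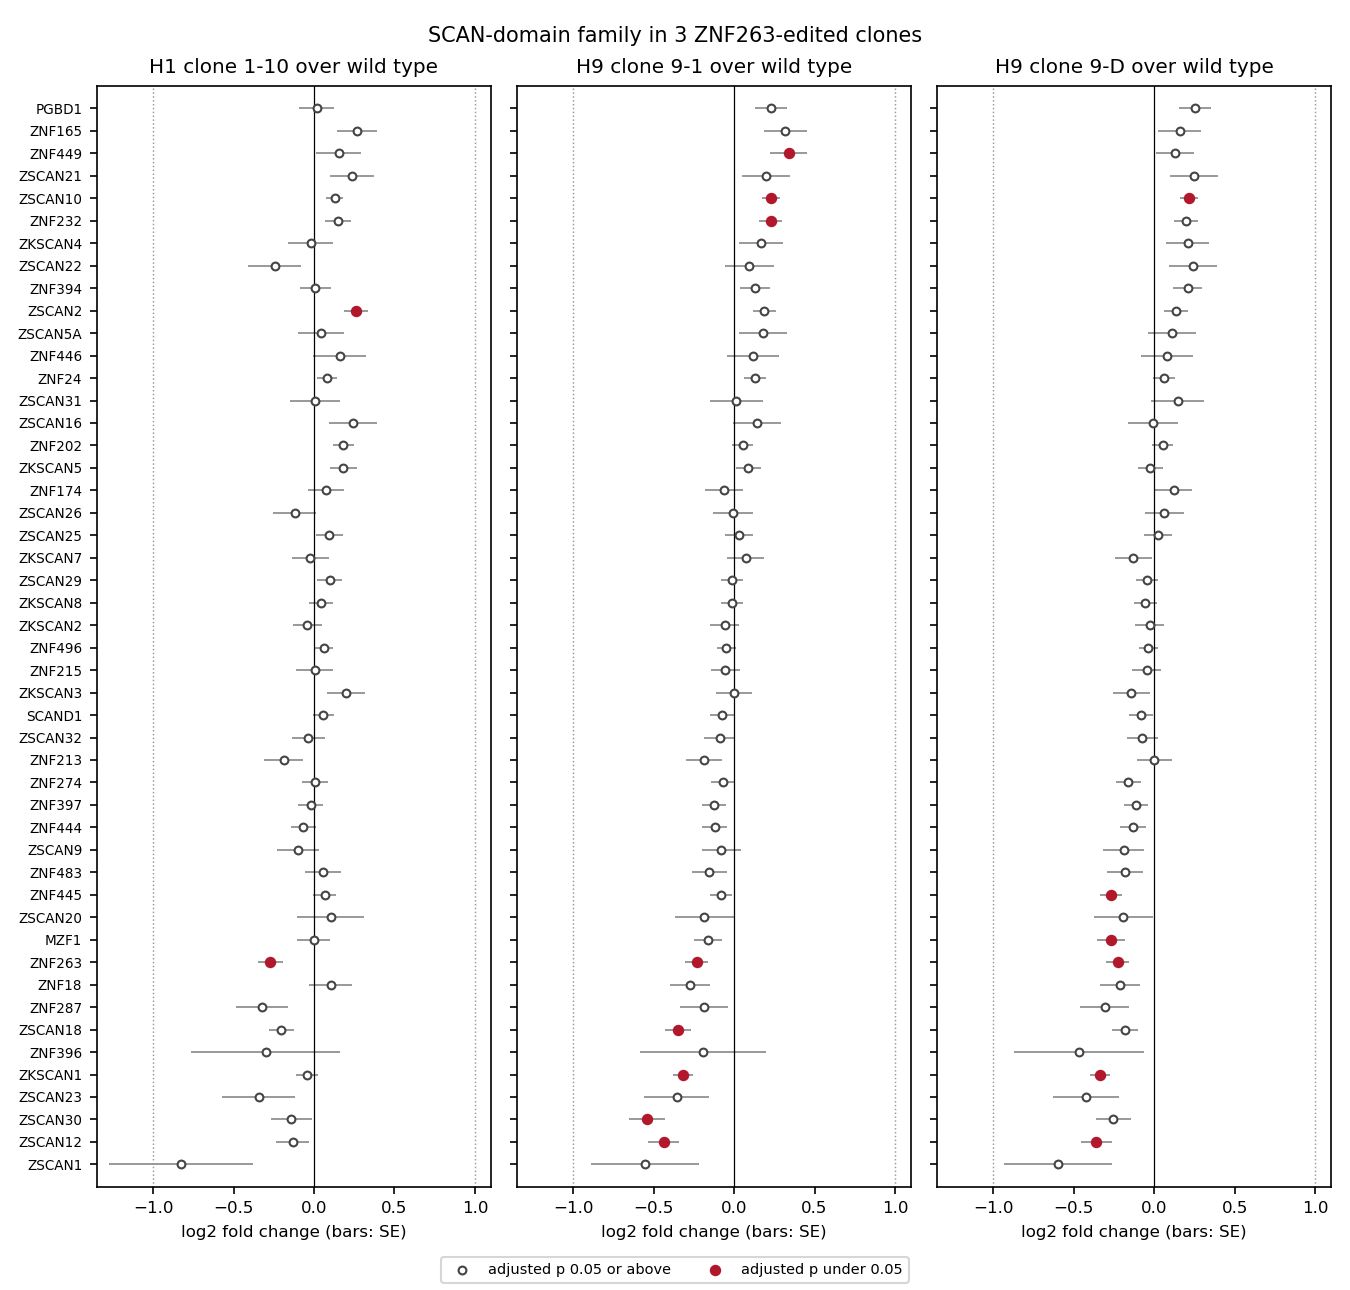
Log2 fold change of each of the 48 SCAN-domain genes in H1 clone 1-10, H9 clone 9-1 and H9 clone 9-D over the wild type of the same line, with bars of 1 SE, filled points for adjusted p under 0.05 and dotted lines at 2-fold. No member reaches 2-fold in any clone, and ZNF263 is the single gene with filled points in all 3 panels.

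Around ZNF263, few relatives changed and none reached 2-fold. In clone 1-10, ZSCAN2 rose and only ZNF263 fell, which is 4.17% of the family, beside 12.3% of the 14897 genes tested in H1. That background rests on single libraries: 949 of 15145 genes passed without wild-type library 3 (0 members rose and 1 fell) and 1102 of 15050 without clone library 1 (1 rose and 0 fell). In clone 9-1, 3 members rose and 5 fell (16.7%, beside 26.3% of 15411 genes), and in clone 9-D, 1 rose and 5 fell (12.5%, beside 23.5%). With both H9 clones together, 3 rose and 7 fell (20.8%, beside 29.7%). The shares of all genes that rose were 5.01% in 1-10, 12.8% in 9-1, 11.5% in 9-D and 14.4% in both H9 clones together, and the shares that fell were 7.25% in 1-10, 13.5% in 9-1 and 15.3% in both H9 clones together, with 1849 of 15411 genes in 9-D. A fitted change of 2-fold or more, whatever its p, was reached by 0 of the 48 members in each of these comparisons, beside 1.65% of all tested genes in 1-10, 3.46% in 9-1, 3.21% in 9-D and 3.03% in the H9 clones together. The members' median SE was 0.110 in 1-10, 0.0983 in 9-1 and 0.0977 in 9-D. Over all genes it was smaller, at 0.0929 in 1-10, 0.0913 in 9-1 and 0.0913 in 9-D. The part of this in the family's smaller share was not tested. No chance test was made of the family's share, and the median log2 change of its 48 members was 0.01 in 1-10, -0.05 in 9-1 and -0.05 in 9-D, against 0.00, -0.00 and -0.01 over all genes in the same order. The fitted values of all members ran from -0.83 (ZSCAN1) to 0.27 (ZNF165) in 1-10, from -0.55 (ZSCAN1) to 0.34 (ZNF449) in 9-1 and from -0.60 (ZSCAN1) to 0.26 (PGBD1) in 9-D.

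**Figure D3:**
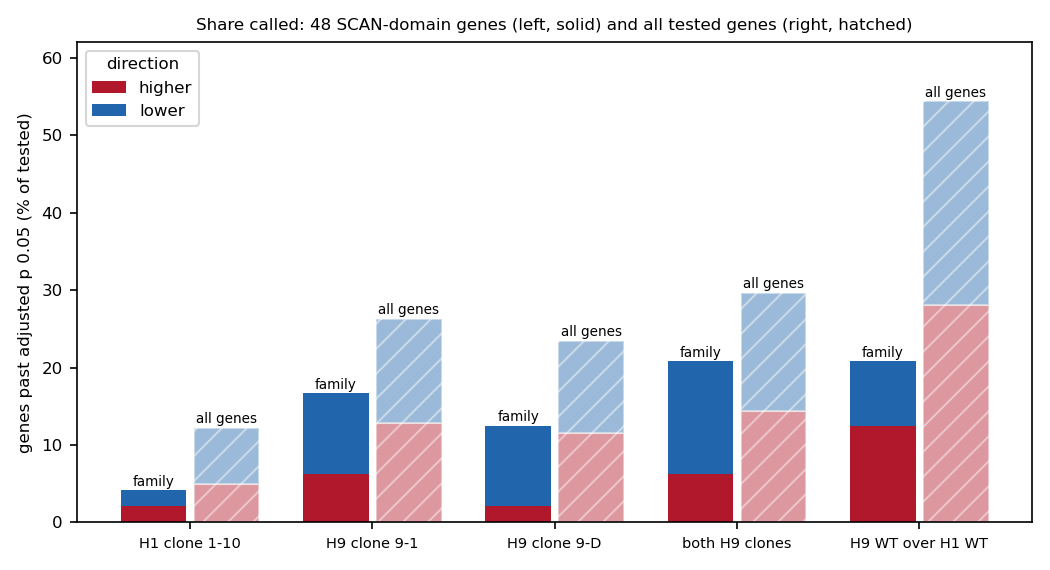
Share of genes past adjusted p 0.05, split into higher and lower, for the 48 SCAN-domain genes (solid bar) and for all tested genes (hatched bar) in 5 comparisons. In each comparison the family's bar is shorter than that of all genes, with 4.17% beside 12.3% in H1 clone 1-10 and 20.8% beside 29.7% in the H9 clones together.

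Among the 19 genes with SCAN and KRAB, none rose in any clone. Besides ZNF263, 1 of them fell in 9-1 (ZKSCAN1), 2 fell in 9-D (ZKSCAN1 and ZNF445) and none fell in 1-10. Of all genes tested, 12.8% rose in 9-1, 11.5% in 9-D and 5.01% in 1-10. The shares that fell were 13.5% in 9-1 and 7.25% in 1-10, with 1849 of 15411 genes in 9-D. A list of 19 genes is short for such shares, and whether it differs from all genes was not tested. ZKSCAN1 had 65.1, 66.0 and 59.4 CPM in clone 9-1, 61.99, 64.8 and 61.4 CPM in 9-D, and 76.2, 83.7 and 77.1 CPM in H9 wild type. All 6 libraries of both clones lay below all 3 of wild type. The log2 fold change was -0.32 in 9-1 (SE 0.0648, edgeR adjusted p = 0.000261) and -0.34 in 9-D (SE 0.0648, adjusted p = 0.000135). In H1, ZKSCAN1 had 48.3, 50.01 and 50.7 CPM in clone 1-10 and 49.0, 52.7 and 50.7 CPM in wild type, which overlapped (log2 fold change -0.04, SE 0.0680, adjusted p = 0.755). The H9 clones, though below their own wild type, remained above every H1 library for this gene.

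ZNF445, which binds imprinted control regions beside ZFP57 and helps to keep their methylation, passed in clone 9-D. It had 51.2, 49.6 and 48.3 CPM in 9-1, 46.9, 41.7 and 41.8 CPM in 9-D, and 52.5, 51.8 and 52.7 CPM in H9 wild type. Both clones lay below wild type without overlap, but only 9-D passed (log2 fold change -0.27, SE 0.0690, edgeR adjusted p = 0.00338), while 9-1 had -0.08 (adjusted p = 0.426). In H1 it had 55.5, 51.2 and 54.8 CPM in clone 1-10 and 50.7, 54.5 and 48.1 CPM in wild type. The other well-known SCAN and KRAB genes stayed short of the threshold in all clones: ZNF274, which brings the methyltransferase SETDB1 to zinc finger gene clusters, had log2 fold changes of -0.07 in 9-1, -0.16 in 9-D and 0.00 in 1-10, and ZKSCAN3, a repressor of autophagy genes, had -0.00, -0.14 and 0.20 in the same order.

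Among the 27 members with SCAN and zinc fingers but no KRAB, the pluripotency factor ZSCAN10 rose in both H9 clones. It had 374, 373 and 369 CPM in clone 9-1, 367, 349 and 389 CPM in 9-D, and 331, 300.0 and 318 CPM in H9 wild type. All 6 libraries of the clones lay above wild type. The log2 fold change was 0.23 in 9-1 (SE 0.0561, edgeR adjusted p = 0.00203) and 0.21 in 9-D (SE 0.0561, adjusted p = 0.00418), and both calls held without any one library. In H1, clone 1-10 had 331, 348 and 302 CPM and wild type had 305, 299.7 and 289.65 CPM. The groups overlapped through the third library of clone 1-10, and the log2 fold change of 0.13 did not pass (SE 0.0514, adjusted p = 0.100); without that library it was 0.18 and passed. The summed pluripotency markers given above were also higher in these clones, though PODXL was lower in both H9 clones. The part of these markers in the ZSCAN10 values was not tested. ZSCAN10 lies on chromosome 16 within 1 Mb of ZNF263.

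ZSCAN2 was the one relative that rose in clone 1-10. It had 45.03, 49.5 and 47.1 CPM in clone 1-10 and 39.4, 41.7 and 36.6 CPM in H1 wild type, without overlap. The log2 fold change was 0.26 (SE 0.0741, edgeR adjusted p = 0.0185), and the call was lost without wild-type library 3 or without clone library 2, where adjusted p reached 0.145. In H9, ZSCAN2 had 33.7, 34.0 and 35.5 CPM in clone 9-1, 33.5, 32.8 and 32.9 CPM in 9-D, and 30.8, 30.0 and 29.4 CPM in wild type. Here too every library of the clones lay above wild type, with log2 fold changes of 0.19 in 9-1 (adjusted p = 0.0576) and 0.13 in 9-D (adjusted p = 0.210) that did not pass.

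The falls in this group were found in H9. ZSCAN12 had 14.6, 17.6 and 18.6 CPM in clone 9-1, 19.1, 17.5 and 17.1 CPM in 9-D, and 22.2, 25.02 and 21.7 CPM in H9 wild type. All clone libraries lay below wild type, with log2 fold changes of -0.44 in 9-1 (SE 0.0971, edgeR adjusted p = 0.000712) and -0.36 in 9-D (SE 0.0964, adjusted p = 0.00514). In H1 the values were 20.01, 15.9 and 20.6 CPM in clone 1-10 and 20.3, 20.4 and 20.2 CPM in wild type, which overlapped (log2 fold change -0.13, adjusted p = 0.440). ZSCAN12 belongs to the chromosome 6 group of the family, of which 11 members lie close together near the histone genes.

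ZSCAN30 showed the largest change past the threshold in any clone. It had 10.1, 9.39 and 10.6 CPM in clone 9-1, 11.6, 13.5 and 11.5 CPM in 9-D, and 13.5, 14.2 and 15.8 CPM in H9 wild type. Both clones lay below wild type, but the highest 9-D library was just under the lowest wild-type one. The log2 fold change was -0.54 in 9-1 (SE 0.111, edgeR adjusted p = 0.000268) and -0.26 in 9-D (SE 0.108, adjusted p = 0.0846). In H1 it was -0.14 (adjusted p = 0.518), with 12.7, 10.8 and 9.91 CPM in clone 1-10 and 11.9, 14.2 and 10.8 CPM in wild type. ZSCAN30 and its neighbour ZNF397 lie on opposite strands and share 188 exon bases in GENCODE v29, and whether the counting used strand is not given in the sources used here, so reads in that stretch cannot be assigned with certainty. ZNF397 itself had -0.13 in 9-1 and -0.12 in 9-D and did not pass.

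ZSCAN18, a gene whose promoter is often methylated in tumours of the digestive tract, fell in clone 9-1. It had 32.2, 33.1 and 34.0 CPM in 9-1, 31.8, 37.5 and 42.3 CPM in 9-D, and 42.9, 42.1 and 41.2 CPM in H9 wild type. The 9-1 libraries were close together below wild type, and the 9-D libraries were spread, the third being at wild-type level. The log2 fold change was -0.35 in 9-1 (SE 0.0821, edgeR adjusted p = 0.00133) and -0.18 in 9-D (adjusted p = 0.103), which became -0.28 and passed without the third 9-D library. Clone 1-10 had 37.2, 37.1 and 31.6 CPM and H1 wild type 42.6, 40.2 and 39.7 CPM, without overlap but without passing (log2 fold change -0.20, adjusted p = 0.0809).

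**Figure D4:**
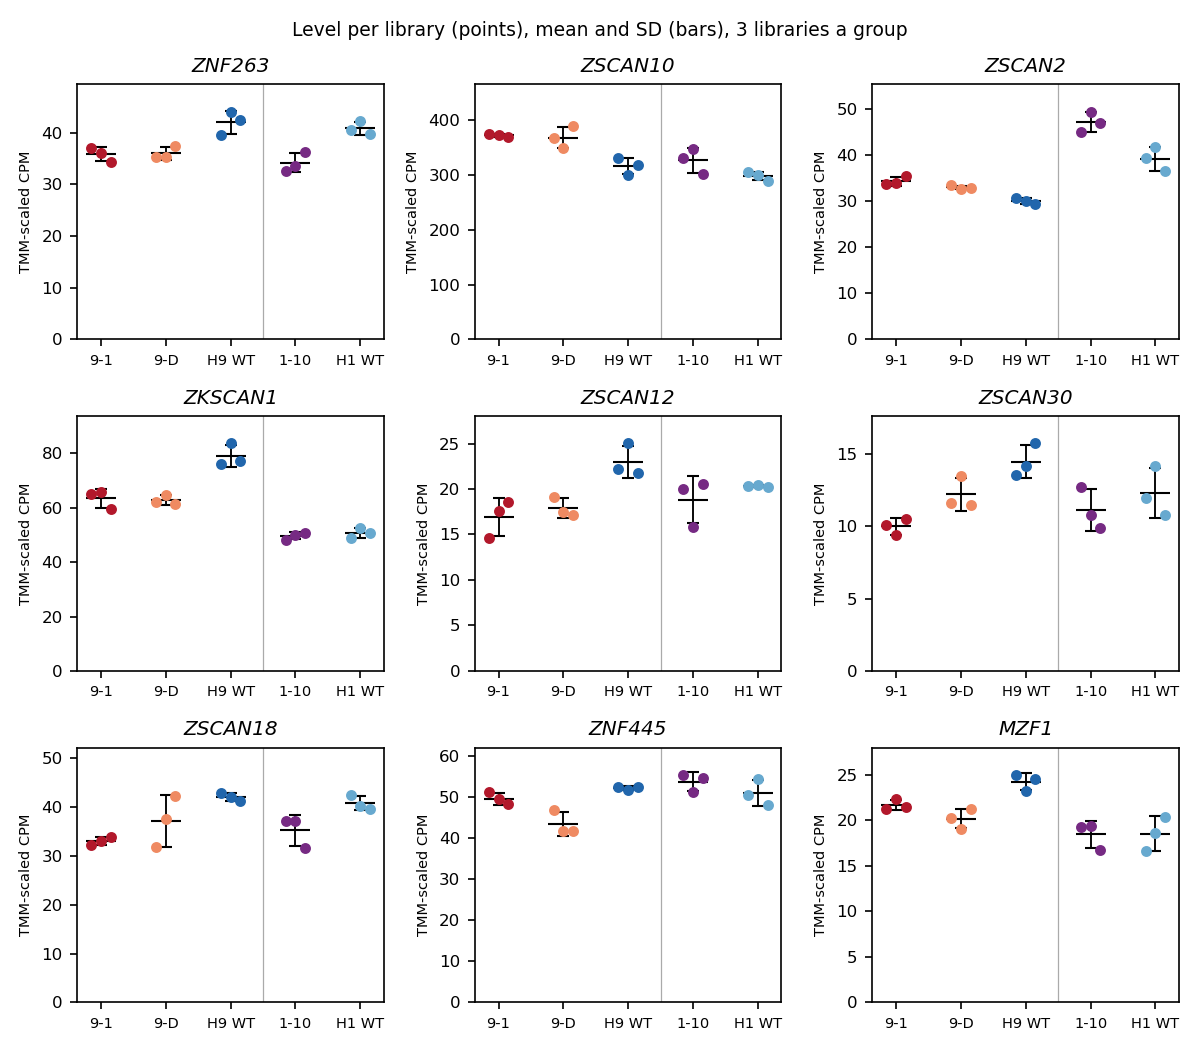
TMM-scaled CPM of 9 members in each of the 15 replicated libraries, with mean and SD of the 3 libraries of a group, for clones 9-1 and 9-D and H9 wild type to the left and clone 1-10 and H1 wild type to the right of the grey line. ZNF263 is lower in every clone, ZSCAN2 is higher in every clone, and ZKSCAN1, ZSCAN12, ZNF445 and MZF1 are separated from wild type in H9 and overlap with it in H1.

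The remaining calls were small and less stable. MZF1 fell in 9-D, to 20.2, 19.1 and 21.2 CPM against 25.02, 23.2 and 24.5 CPM in H9 wild type (log2 fold change -0.27, edgeR adjusted p = 0.0200), and had 21.2, 22.4 and 21.5 CPM in 9-1 (-0.16, adjusted p = 0.163). ZNF449 rose in 9-1, with 11.5, 11.7 and 10.8 CPM against 8.38, 9.55 and 8.95 CPM in wild type (log2 fold change 0.34, edgeR adjusted p = 0.0261), a call that DESeq2 did not make. ZNF232 rose in 9-1, with 36.2, 40.4 and 38.9 CPM against 33.7, 32.0 and 33.0 CPM in wild type (0.23, edgeR adjusted p = 0.0215), and had 0.19 in 9-D (adjusted p = 0.0535). The MZF1 call was lost without wild-type library 1 or 3 or 9-D library 1 or 2 (adjusted p up to 0.103). The ZNF449 call was lost without wild-type library 1 or 3 or 9-1 library 1 or 2 (up to 0.115), and the ZNF232 call without wild-type library 2 or 3 or 9-1 library 2 or 3 (up to 0.126). The other members without KRAB did not pass in any clone.

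Of the 2 members without zinc fingers, PGBD1, in which SCAN is joined to a domain derived from a piggyBac transposase, passed with both H9 clones together. It had 15.4, 15.4 and 14.4 CPM in 9-1, 15.03, 15.5 and 15.4 CPM in 9-D, and 12.6, 13.1 and 12.8 CPM in H9 wild type. All clone libraries lay above wild type, with a log2 fold change of 0.24 (SE 0.0844, edgeR adjusted p = 0.0284) whose call was lost whichever wild-type library was left out (adjusted p up to 0.101). In H1 PGBD1 had 0.02 (adjusted p = 0.949). SCAND1 had -0.08 in each H9 clone and 0.06 in clone 1-10 and did not pass.

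ZSCAN1, among the 3 members with the lowest wild-type levels per kilobase, had the most negative fitted values of the family without passing in any clone. Its counts were 9 to 25 in 9-1 and 10 to 23 in 9-D, against 14 to 36 in H9 wild type, and 5 to 12 in 1-10, against 11 to 17 in H1 wild type. The log2 fold changes were -0.55 in 9-1 (SE 0.335), -0.60 in 9-D (SE 0.336) and -0.83 in 1-10 (SE 0.446), with adjusted p of 0.234, 0.206 and 0.239 in that order.

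Members that lie together on a chromosome had fitted changes of both signs. The family has groups of 5 genes on chromosome 16 (with ZNF263), 4 on chromosome 18, 6 on chromosome 19, 11 on chromosome 6 and 5 on chromosome 7, with successive starts under 1 Mb apart, and 17 genes alone or in pairs. With both H9 clones together the median log2 change was -0.08 in the chromosome 16 group, -0.22 in the chromosome 18 group, -0.16 in the chromosome 19 group, 0.03 in the chromosome 6 group and 0.03 in the chromosome 7 group. Within the chromosome 16 group the values ran from -0.23 (ZNF263) to 0.22 (ZSCAN10), and within the chromosome 6 group from -0.40 (ZSCAN12) to 0.24 (PGBD1). In clone 1-10 the medians of these 5 groups lay between -0.10 and 0.09.

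No member passed between the H9 clones. Clone 9-D against clone 9-1 gave 0 calls of 48 with edgeR and with DESeq2, beside 0.305% of all tested genes, and 2 members had an unadjusted p under 0.05. The log2 differences ran from -0.27 (ZNF396) to 0.29 (ZSCAN30, SE 0.113, edgeR adjusted p = 0.581). For ZNF445, with the lowest adjusted p (0.543), the difference was -0.19 (SE 0.0692). ZSCAN30, ZSCAN18, ZNF445, MZF1, ZNF449 and ZNF232, which passed in 1 H9 clone and not in the other, are therefore not shown to differ between the clones.

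The change in H9 minus the change in H1 was tested over the 15 replicated libraries. The H1 side is clone 1-10 alone, so a difference of line cannot be told apart from one of clone. One member passed, on the lower side, beside 9.21% of 15802 genes (5.21% higher and 4.0% lower), and 3 had an unadjusted p under 0.05. A fitted difference of 2-fold or more was seen in 0 of 48, beside 4.79% of all genes. The member that passed was ZKSCAN1, with a difference of -0.29 (SE 0.0854, edgeR adjusted p = 0.0238), and its call was lost without H1 wild-type library 1 or 3, without clone 1-10 library 3 or without H9 wild-type library 2 (adjusted p up to 0.0814). For ZSCAN10 the difference was 0.09 (SE 0.0717, adjusted p = 0.507), for ZSCAN2 -0.10 (SE 0.0953, adjusted p = 0.600), for ZSCAN12 -0.27 (SE 0.134, adjusted p = 0.234) and for ZSCAN30 -0.26 (SE 0.156, adjusted p = 0.350). Their changes, which passed in 1 line and not in the other, are thus not shown to differ between the lines.

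Across the 48 members the changes in H9 and in H1, which share no library, were correlated. Pearson's r was 0.68 and Spearman's rho 0.62 over the 48 genes, and 34 of them (70.8%) had the same sign in both lines. Over 14627 genes tested in both lines, r was 0.31, rho 0.38 and the share of the same sign 64.9%. The family's r was 0.60 without ZSCAN1, which has few counts, and 0.59 without ZSCAN1 and ZNF263. Genes are not independent replicates, and the correlation is a description.

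**Figure D5:**
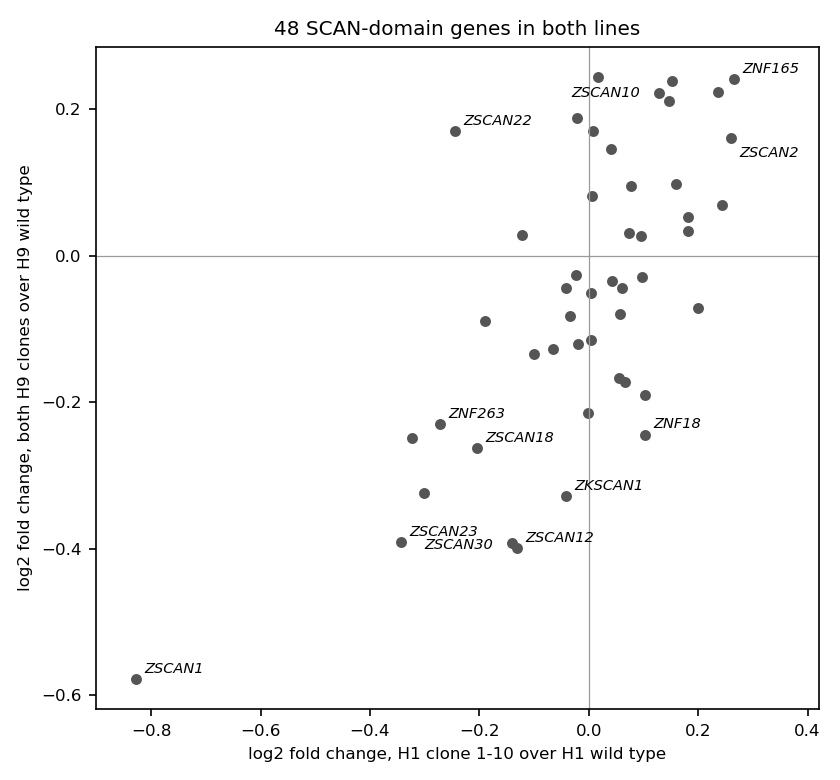
Log2 fold change of each of the 48 SCAN-domain genes over wild type in the H9 clones together (vertical) and in H1 clone 1-10 (horizontal). Points run from lower left, where ZSCAN1, ZSCAN23 and ZNF263 lie, to upper right, where ZSCAN10, ZSCAN2 and ZNF165 lie, with 34 of 48 in the quadrants of equal sign.

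The single H1 libraries add the heterozygous clone. ZNF263 had 31.8 CPM in clone 1-5 and 33.3 CPM in clone 1-10, against 39.3 CPM in the single wild type. The log2 ratio was -0.31 (95% interval -0.50 to -0.11) in 1-5 and -0.24 (-0.43 to -0.04) in 1-10. With 1 library each there is no test, and these exact intervals cover counting error only. ZSCAN30 had 8.63 CPM in 1-5 and 8.35 CPM in 1-10, against 13.4 CPM in wild type, a log2 ratio of -0.63 (-0.999 to -0.27) in 1-5 and -0.68 (-1.05 to -0.32) in 1-10. ZKSCAN1 was at -0.25 (-0.42 to -0.08) in 1-5 and -0.01 (-0.17 to 0.15) in 1-10. ZSCAN10 was at 0.11 (0.05 to 0.17) in 1-5 and 0.04 (-0.01 to 0.10) in 1-10, and ZSCAN2 at -0.02 (-0.21 to 0.16) and 0.07 (-0.11 to 0.25) in the same order. For ZSCAN2 the interval of the single 1-10 library includes 0 and ends just under the replicated estimate of 0.26 for the same clone. Of the 48 members, 0 differed 2-fold or more in either single clone library, beside 2.43% of all genes with at least 5 counts in both libraries for 1-5 and 2.2% for 1-10. The interval lay above 0 for 3 members and below 0 for 7 in 1-5, and above for 2 and below for 5 in 1-10. Over all genes with at least 5 counts in both libraries it lay above 0 for 11.9% and below for 9.83% in 1-5, and above for 10.8% and below for 8.64% in 1-10. Besides ZNF263 and ZSCAN30, ZNF213 (-0.41 in 1-5 and -0.37 in 1-10) and ZNF446 (-0.68 and -0.56) lay below 0 in both, whereas in the replicated clone 1-10 ZNF213 had -0.19 (edgeR adjusted p = 0.338) and ZNF446 had 0.16 (adjusted p = 0.587).

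Corepressor genes linked to KRAB domains were examined, though whether the members with KRAB work through them was not tested. The list held 33 tested genes, chosen with earlier results of these data known. In the H9 clones together 5 of them rose and 5 fell, beside 14.4% of all genes that rose and 15.3% that fell. TRIM28, the corepressor that many KRAB domains bind, had 1388 ± 52.6 CPM in 9-1 and 1388 ± 81.4 CPM in 9-D. H9 wild type had 1260.5 ± 30.1 CPM (SD, n = 3 each), and the log2 fold change over both clones was 0.13 (edgeR adjusted p = 0.0268). TRIM24, a relative of TRIM28, rose by 0.34, and CBX5, the heterochromatin protein HP1 alpha, fell by 0.29. In clone 1-10, 2 of the 33 rose and 4 fell, beside 5.01% and 7.25% of all genes. TRIM28 had a log2 fold change of 0.00 there (adjusted p = 0.991), CBX5 fell by 0.23, and FAM208A, a subunit of the HUSH silencing complex also named TASOR, fell by 0.24 there and by 0.20 in the H9 clones together. CHD3, a helicase of the NuRD complex, rose in 1-10, with 82.4 ± 2.44 CPM against 53.4 ± 5.28 CPM in H1 wild type (log2 fold change 0.62), and fell in the H9 clones together by 0.23. In H9, CHD3 ran from 36.7 to 39.4 CPM in 9-1 and from 37.75 to 49.0 CPM in 9-D. Wild type ran from 41.1 to 51.1 CPM, which 9-D overlapped. The difference of the 2 effects passed for CHD3 (-0.86, edgeR adjusted p = 9.92e-08), for MBD3 (-0.29, adjusted p = 0.00777) and for TRIM24 (0.30, adjusted p = 0.00415). The methyltransferase SETDB1 did not pass in any clone, with -0.07 in 9-1, -0.06 in 9-D and 0.10 in 1-10.

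Further SCAN genes that are not among the 48 were looked up as well. Of 11 such names, 7 stand in the tables and 4 had enough counts to be tested (ZNF75D, ZNF500, ZBED9 and SCAND2P). ZNF75D, with SCAN, KRAB and zinc fingers, rose in both H9 clones, with a larger fitted change than any rise among the 48 members. It had 16.996 ± 1.19 CPM in 9-1 and 16.7 ± 0.850 CPM in 9-D, against 11.97 ± 0.441 CPM in H9 wild type (SD, n = 3 each), with log2 fold changes of 0.50 (SE 0.101, edgeR adjusted p = 0.000227) in 9-1 and 0.47 (SE 0.101, adjusted p = 0.000525) in 9-D. In H1 it had 11.5 ± 1.18 CPM in clone 1-10 and 9.96 ± 0.829 CPM in wild type (0.21, adjusted p = 0.272), and the difference between the lines did not pass (0.27, adjusted p = 0.285). The other 3 did not pass in any clone.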

How the data were processed

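Read counts per gene, as deposited by the authors, were used for 18 libraries of H1 and H9 cells. The submitters' processing notes name STAR, featureCounts, DESeq2 and the build hg19, without versions or a strand setting. The authors' deposited tables hold log2 fold changes and adjusted p-values from DESeq2.

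Counts were tested with edgeR 4.0.16 in R 4.3.3 (TMM scaling, filterByExpr, quasi-likelihood F test, Benjamini-Hochberg adjustment over all genes tested, threshold 0.05). Both H9 clones and their wild type entered 1 model, and the difference between lines used all 15 replicated libraries. SE was derived from the log2 fold change and F. Total counts ran from 9.66 to 21.01 M per library, and intervals and limits cover counting error only. Libraries of a group differed by more than counting noise and no pair was identical. The test was tried on simulated data. Alternatives were DESeq2 1.42.0, RLE scaling, no filter, a replicate block, fits of 1 clone with wild type, and leaving out each library.

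Levels per kb use union exon length from GENCODE v29. RefSeq GRCh38.p14 gave promoters, chromosomes and neighbours only, since that build differs from hg19. The GENCODE v29 exon lengths and shared exon bases were not matched to the hg19 annotation of the counts either. Protein sequences were not used here.

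Members, lists and tests were chosen with earlier results of these data known. By rule, ZNF263, ZSCAN10 and every member called in clone 1-10, 9-1 or 9-D are named, with values per library for ZNF263, ZSCAN10 and the largest called in each clone; all other members and genes given with values were chosen after their values were seen.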

Additional observations from a re-analysis of the deposited data

Results flagged for a closer look

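ZSCAN29 had 1 library apart from the rest among the 6 H9 knockout libraries. The third 9-D library had 45.4 CPM, while the others of both clones had 49.6 to 51.4 CPM and H9 wild type had 50.1 to 50.9 CPM. The gap to the nearest library was 0.695 of the whole range. The check was made for 19 genes and marked this 1, and chance marks about 1 in 20. ZSCAN29 did not pass in 9-D (log2 fold change -0.05, edgeR adjusted p = 0.685).

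ZKSCAN1 differed between the H9 clones and H1 clone 1-10 in its change over wild type, by -0.29 for H9 minus H1 (edgeR adjusted p = 0.0238). The call was lost in 4 of 19 alternative settings. Clone 1-10 is the only H1 clone in this test, so line and clone cannot be told apart. Over the single wild type, ZKSCAN1 had a log2 ratio of -0.25 in heterozygous clone 1-5 and -0.01 in 1-10, with 1 library each. It was lower in 6 of 6 H9 knockout libraries, at 59.4 to 66.0 CPM against 76.2 to 83.7 CPM in H9 wild type, and overlapped in H1, at 48.3 to 50.7 CPM in clone 1-10 against 49.0 to 52.7 CPM in H1 wild type. Among the members that passed between the wild types, ZKSCAN1 also differed most, and the part of that difference in the result was not tested.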

How the results depend on the processing

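The number of all genes called in clone 1-10 was 1827, against 1210 with DESeq2 and 2926 with the replicate number as a block. With the block 3 members rose and 2 fell in 1-10, and 2 rose in 9-D, against 1, 1 and 1 without it. Deviations of samples of the same number correlated weakly (0.036 to 0.119 in H1, against -0.107 to 0.059 for other pairs, and -0.031 to 0.063 in H9, against -0.072 to 0.05). Not every sample correlated best with its own number, and the labels do not say what a number marks. The pairing was therefore not taken as shown, and in neither line did the block reverse the direction of a called member. Leaving out each library in turn gave 949 to 2100 genes called in 1-10 (949 without wild-type library 3 and 1102 without clone library 1), with 0 to 2 members higher and 0 to 1 lower. It gave 1 to 4 members higher in 9-1, 1 to 2 higher and 3 to 6 lower in 9-D, 1 to 5 higher in both H9 clones together, 25 to 53 genes called between the H9 clones and 0 to 2 members lower in the difference between lines. Directions were followed for the 19 members called in any comparison. None was reversed where the value passed in the main fit or in the alternative, and sign changes of other values were not counted. For single genes 17 values gained and 50 lost the threshold. Another 1703 values did neither, and these include the member correlations recomputed without ZNF263, ZSCAN1 or both. ZKSCAN1, ZSCAN10 and ZSCAN12 passed in both H9 clones under every alternative run, as did ZSCAN18 and ZSCAN30 in 9-1 and ZNF445 in 9-D. ZSCAN1 and ZNF396 rest on few counts.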

Other observations

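Besides members, the genes around ZNF263 on chromosome 16 were examined. Of 13 tested neighbours, members included, 4 rose and 0 fell in the H9 clones together, beside 14.4% of all genes that rose, and 0 passed in clone 1-10. TIGD7, a gene derived from a pogo transposase that overlaps the span of ZNF263 on the opposite strand, rose most. It had 13.7 ± 1.66 CPM in 9-1 and 12.5 ± 1.49 CPM in 9-D, against 8.95 ± 0.630 CPM in H9 wild type (SD, n = 3 each), with log2 fold changes of 0.62 (edgeR adjusted p = 0.00012) and 0.48 (adjusted p = 0.00325). In H1 it had 11.1 ± 1.11 CPM in clone 1-10 and 9.79 ± 1.57 CPM in wild type (0.19, adjusted p = 0.390), and the difference between the lines did not pass (0.36, adjusted p = 0.208). TIGD7 and ZNF263 share 0 exon bases in GENCODE v29, and whether reads were counted by strand is not given in the sources used here. The other 3 that rose with the clones together were ZSCAN10, CREBBP (0.19) and ZNF205 (0.22). The libraries of CREBBP overlapped wild type in both clones, and those of ZNF205 did so in 9-D. With the clones apart, 3 of the 13 rose in 9-1 and 2 in 9-D, beside 12.8% and 11.5% of all genes.

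In the authors' deposited tables, 1 member rose and 1 fell in H1 (ZSCAN2 and ZNF263) and 3 rose and 6 fell in H9 at adjusted p under 0.05.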
